A study of Homo sapiens with 15 samples.

Results

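The genes described here are the 37 genes of human mitochondrial DNA (mtDNA), chosen by their place on the mitochondrial chromosome and their symbols, which all begin with MT-. They are 37 of the 57773 genes counted in each library. Of these, 13 encode proteins, 2 encode ribosomal RNAs and 22 encode transfer RNAs. They were followed in 15 libraries of total RNA. The RNA came from femoral marrow, taken by flushing once a SCID-beige mouse was paralysed. SCID-beige is a mouse strain that lacks working T and B cells and has weak natural killer cells. Every mouse carried MM.1S, a human multiple myeloma cell line, given by vein as cells that make a fluorescent protein and luciferase.

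Each of the 5 groups had 3 libraries, described as 3 tumors, and 5 mice were treated per group. The control group (PBS) received saline by vein once a week. The bortezomib group received 0.25 mg/kg into the abdomen once a week, and bortezomib is a myeloma drug that blocks the proteasome. The elesclomol group received 25 mg/kg under the skin, and elesclomol is a compound that carries copper into mitochondria. The combination group received both drugs at these doses from inclusion, and in the delayed combination group elesclomol began 14 days after inclusion. All groups thus share a late stage of disease and the same single cell line, and the marrow holds mouse cells beside the human ones. The day of sampling followed paralysis and is not given here. Where it differed between groups, it cannot be told apart from treatment. P-values measure the spread between these samples. In such bulk samples, fewer cells of a type and less RNA per cell cannot be told apart.

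Mitochondrial DNA is a small circle that is read from both strands into long RNAs. Enzymes cut these long RNAs at the transfer RNAs that lie between the other genes, and this frees ribosomal RNAs, transfer RNAs and messages. The 13 proteins are subunits of respiratory complexes I, III, IV and V, which they build together with many subunits made from nuclear genes. The proteins that copy and read mtDNA, cut its RNA and help to translate it are encoded in the nucleus.

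The letters below show how tightly these genes are packed, which bears on how reads can be assigned to them. Sequences and positions are those of the GENCODE 29 annotation of GRCh38, chromosome MT, while the authors aligned reads to GRCh37. Most coding ends lie directly against the next gene. Of the 13 protein genes, 6 end with an incomplete stop codon, which is completed only when adenines are added to the cut RNA. The last 30 bases of 4 genes whose levels are followed below are given 5′ to 3′ on the coding strand, with the stop letters in capitals.
MT-CO3: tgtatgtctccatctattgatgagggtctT
MT-ND3: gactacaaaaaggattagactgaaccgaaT
MT-ND4: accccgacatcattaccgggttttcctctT
MT-ND5: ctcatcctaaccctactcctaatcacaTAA
The first 3 end in a single T of the gene and MT-ND5 in a full TAA. MT-ATP8 and MT-ATP6 overlap on the same strand over 46 bases, at positions 8527 to 8572, and MT-ND4L and MT-ND4 overlap over 7 bases, at 10760 to 10766. The longer overlap is printed whole in capitals because reads within it belong to both genes. Values of overlapping neighbours are therefore not independent.
MT-ATP8 and MT-ATP6 overlap: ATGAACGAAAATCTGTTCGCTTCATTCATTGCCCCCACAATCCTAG
Of the transfer RNAs, 3 had a mean of at least 10 counts per library, and their genes are shown because they carry 90.4% of all transfer RNA counts. Capitals mark the anticodon, located as the triplet in the middle of a loop closed by a stem in which 4 or 5 of 5 positions pair.
MT-TL1 (leucine): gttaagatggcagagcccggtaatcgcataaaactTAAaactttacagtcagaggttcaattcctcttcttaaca
MT-TT (threonine): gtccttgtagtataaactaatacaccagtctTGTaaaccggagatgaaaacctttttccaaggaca
MT-TI (isoleucine): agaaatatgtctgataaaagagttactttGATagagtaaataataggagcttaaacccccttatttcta

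The libraries held 4500326 to 13161087 counts each, and the largest 3 were the delayed combination libraries. The whole plasma cell marker list summed to between 13368 and 16674 CPM (a counts-per-million value), and SDC1, IRF4, XBP1 and JCHAIN, which define plasma cells, were counted in all 15 libraries. Of the B cell markers that plasma cells lose, MS4A1 and PAX5 were at 0 in 11 and 10 libraries, while CIITA, CR2 and BCL6 were counted in all 15, at up to 26.65, 26.95 and 6.21 CPM. Of the erythroid markers, HBA1 was at 0 in all 15, and the list of 9 summed to 14.8 to 38.5 CPM except in elesclomol library 1, at 341 CPM. Granulocyte and monocyte markers summed to 15.6 to 70.1 CPM, again except in elesclomol library 1, at 189 CPM. Stromal, bone and endothelial markers summed to 109 to 136 CPM in PBS, 120 to 152 in bortezomib, 136 to 205 in elesclomol, 117 to 159 in the combination and 138 to 240 in the delayed combination, where all 3 libraries were above PBS. None of the 10 tested genes of this list passed in any of the 4 comparisons with PBS. COL1A1, a bone and stromal collagen, had log2 differences from PBS of 2.74, 2.49 and 2.53 in bortezomib, elesclomol and the combination (edgeR adjusted p 0.419, 0.485 and 0.291), with all libraries above PBS in each, and COL3A1 one of 2.73 in the delayed combination (adjusted p 0.252). PDGFRB of the same list was at -1.08 in the combination (edgeR adjusted p 0.318), with all libraries below PBS. The 10 genes split there into 5 above 0 and 5 below, with a median of 0.06. Above 0 were 6 in bortezomib, 8 in elesclomol and 7 in the delayed combination. The part of these cells in the mtDNA values below was not tested. Bortezomib 1, combination 1 and delayed combination 2 stood apart by base composition: genes rich in G and C were relatively high in them, with correlations of the deviation with GC content over 8362 genes of 0.61, 0.57 and 0.38. In the PBS libraries these correlations lay between -0.48 and -0.44.

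Genes of mtDNA took between 35.0% and 40.3% of all counts, with a median over the 15 libraries of 37.6%. The mean was 37.3% ± 1.6 (SD, n = 3) in PBS, 37.3% ± 2.08 in bortezomib, 37.5% ± 2.40 in elesclomol, 37.8% ± 1.46 in the combination and 38.8% ± 2.29 in the delayed combination. The ranges of all 5 groups overlapped. Nearly all of this weight was 1 gene. MT-RNR2, the large ribosomal RNA of the mitochondrial ribosome, held 92.7% of the mtDNA counts and 35.1% of all counts over the pooled libraries, and it had the highest count of any gene. The kit used removes ribosomal RNA before sequencing, so these shares are those of the libraries and may differ from those in cells.

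**Figure D1:**
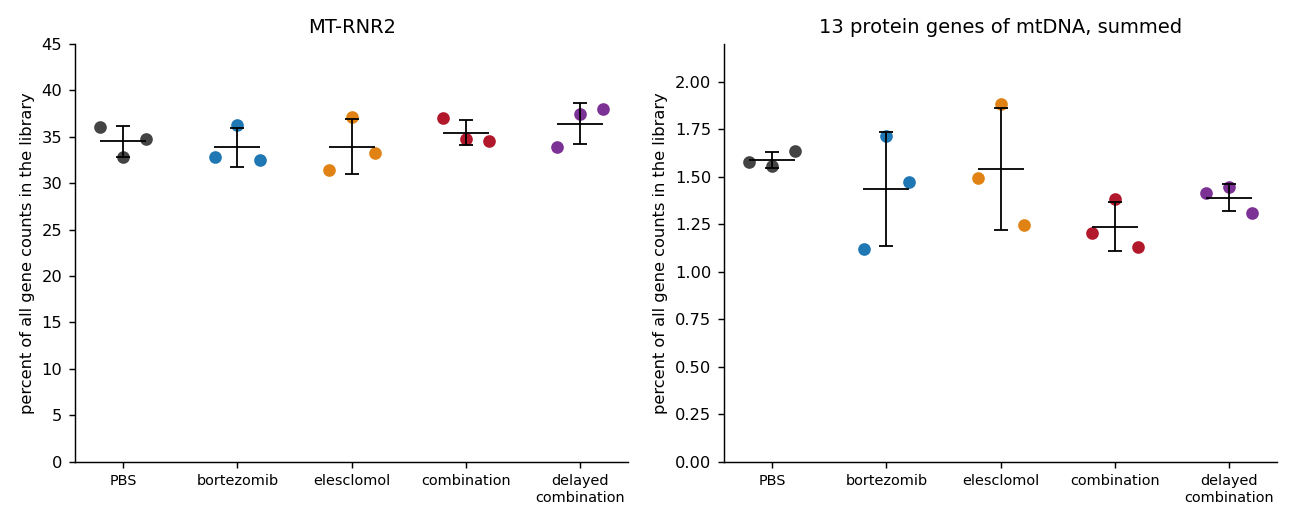
Percent of all gene counts in each library (y axes, linear from 0) taken by MT-RNR2 (left) and by the 13 protein genes of mtDNA together (right), by group. Points are libraries, horizontal marks are means and bars are ± 1 SD (n = 3); MT-RNR2 ranges overlap in all groups, while the 3 combination libraries hold 1.13% to 1.38% in protein genes against 1.56% to 1.64% in PBS.

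MT-RNR2 (ENSG00000210082) lies at positions 1671 to 3229. Its level, in CPM scaled between libraries by TMM (an edgeR factor that evens out composition), was 366000, 314100 and 343000 in the 3 PBS libraries. The bortezomib libraries were at 319400, 375800 and 334600, and those of elesclomol at 316000, 388700 and 322700. Libraries within a group differed by as much as the groups did. The combination libraries were at 377900, 336500 and 346600, and the delayed combination libraries at 327900, 377600 and 405000. The log2 change against PBS was 0.01 ± 0.14 (SE) for bortezomib, 0.01 ± 0.14 for elesclomol, 0.05 ± 0.14 for the combination and 0.12 ± 0.14 for the delayed combination. The 95% interval for the combination ran from -0.24 to 0.34. None of these passed the quasi-likelihood test of edgeR, whose p-values, adjusted by the Benjamini-Hochberg method over all genes tested, were 0.984, 0.996, 0.866 and 0.699.

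MT-RNR1 (ENSG00000211459), the ribosomal RNA of the small subunit, lies just upstream at positions 648 to 1601 and was second in counts among all genes when libraries were pooled. It was at 11140, 11520 and 11680 CPM in PBS, at 10260, 12140 and 38400 CPM in bortezomib and at 40200, 11550 and 9560 CPM in elesclomol. Bortezomib 3 and elesclomol 1 thus stood far above the rest of their own groups. The combination was at 12060, 9317 and 10880 CPM and the delayed combination at 8308, 9560 and 11100 CPM. All 3 delayed libraries were below all 3 of PBS, a position held by 14.7% of all genes. The log2 change was 0.82 ± 0.54 for bortezomib and 0.84 ± 0.54 for elesclomol (edgeR adjusted p 0.548 and 0.748), and it rested on those 2 libraries. Without them it was -0.03 and -0.12.

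The excess of MT-RNR1 was not shared by MT-RNR2, which is cut from the same RNA. For each 100 counts of MT-RNR2 there were 11.5 counts of MT-RNR1 in bortezomib 3 and 12.7 in elesclomol 1. In the other 13 libraries the ratio was between 2.53 and 3.67. The same 2 libraries were set apart by 5 annotated copies of 5.8S rRNA, a cytoplasmic ribosomal RNA, which were looked at after MT-RNR1 had been seen. These summed to 971 and 1106 CPM (without TMM) there and to between 10.0 and 56.8 in the other 13. The library kit removes ribosomal RNA before sequencing, and the part that this step plays in the level of MT-RNR1 was not tested. Elesclomol 1 is also the library with high erythroid and granulocyte markers, while in bortezomib 3 the erythroid list was at 37.6 CPM.

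**Figure D2:**
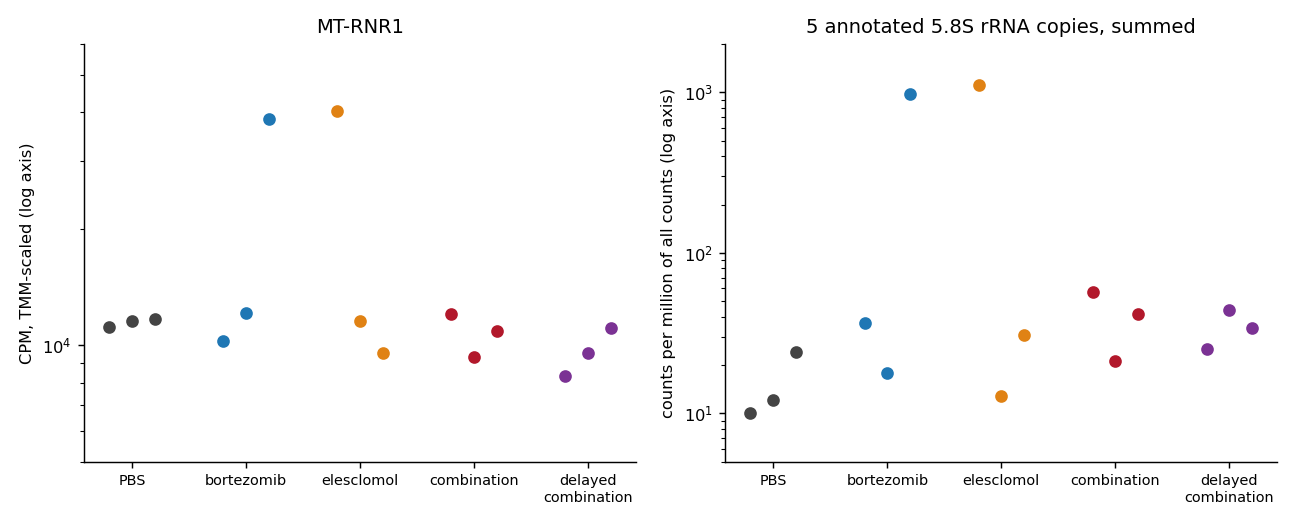
MT-RNR1 in CPM with TMM scaling (left) and the summed CPM, without TMM, of 5 annotated copies of 5.8S rRNA (right) in each library, by group, both on log axes. Points are single libraries: bortezomib 3 (38400 CPM) and elesclomol 1 (40200 CPM) are the highest for MT-RNR1, and the same 2 are the highest for 5.8S rRNA.

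The 22 transfer RNAs together gave 1732 counts over the 15 libraries, from 68 to 198 per library. Such short RNAs are poorly caught by libraries of this kind, and a count may also come from uncut precursor RNA. MT-TL1, which lies directly after MT-RNR2 at positions 3230 to 3304, had 749 counts in all and MT-TT, directly after MT-CYB at 15888 to 15953, had 665. MT-TI, directly after MT-ND1 at 4263 to 4331, had 152. A further 14 genes were detected with no more than 6 counts in any library, and MT-TQ, MT-TW, MT-TA, MT-TN and MT-TK were at 0 in all 15. A count of 0 allows a level of up to 0.228 CPM in the deepest library and 0.667 CPM in the shallowest (3 counts, counting error only). The 14 transfer RNA genes whose RNA has the direction of most messages held 1698 counts and the 8 read in the opposite direction held 34. Whether the counting used strand is not stated, and without it reads from a gene and from RNA of the opposite strand cannot be told apart.

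None of the 3 transfer RNAs tested changed past the threshold in any comparison with PBS. MT-TL1 was at 9.93, 8.08 and 5.71 CPM in PBS and at 4.03, 7.01 and 4.53 CPM in bortezomib, and these ranges overlap. Its log2 change was -0.60 ± 0.25 (edgeR p 0.0318, adjusted p 0.457). MT-TT was at 5.87, 9.29 and 5.48 CPM in bortezomib and at 3.54, 4.96 and 3.39 CPM in the combination, with no overlap between these 2 groups. It was the only 1 of the 18 tested members with all libraries lower there, against 3.93% of all genes. The difference, combination minus bortezomib, was -0.80 ± 0.35 on the log2 scale (edgeR p 0.0360, adjusted p 0.999).

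The protein genes differed widely in level. Per kilobase of gene, and as a percent of the sum over the 13 protein genes in the same library, MT-CO3 was highest in all 15 libraries, at 29.9% ± 2.53 (SD over the 15 libraries). It encodes a core subunit of complex IV, cytochrome c oxidase. MT-CO2 followed at 15.3% ± 0.660 and MT-CO1 at 11.4% ± 0.840, and the 3 genes of complex IV held the top 3 places in this order in every library. MT-ATP6 and MT-ATP8, the mtDNA subunits of the ATP synthase (complex V), were at 8.80% and 4.67%, although 46 of the 207 bases of MT-ATP8 also belong to MT-ATP6. MT-CYB, the only mtDNA gene of complex III, was at 5.47% ± 0.402.

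The 7 subunits of complex I, the NADH dehydrogenase, spread over the lower ranks. MT-ND3 was at 7.24% ± 1.36 and MT-ND4 at 6.36% ± 1.00, and these neighbours cannot be ranked, since MT-ND3 was above MT-ND4 in 9 of 15 libraries and below it in the rest. MT-ND4 was above MT-CYB in 11 of 15 libraries, and MT-ATP6 above MT-ND3 in 13. MT-ND1 was at 3.91%, MT-ND4L at 3.22%, MT-ND2 at 1.96% and MT-ND5 at 1.67%. MT-ND6 was lowest in all 15, at 0.209% ± 0.0514. It is the sole protein gene read in the opposite direction, at positions 14149 to 14673, and the same limit of strand applies to it. On the same scale the ribosomal RNAs stood at 1355% for MT-RNR2 and 90.4% for MT-RNR1, as means over the 15 libraries. MT-RNR2 was thus above the sum of all 13 protein genes in every library. MT-RNR1 was above that sum in bortezomib 3 and elesclomol 1 and below it in the other 13. These are levels after the removal of ribosomal RNA by the library kit, whose part in them was not tested.

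**Figure D3:**
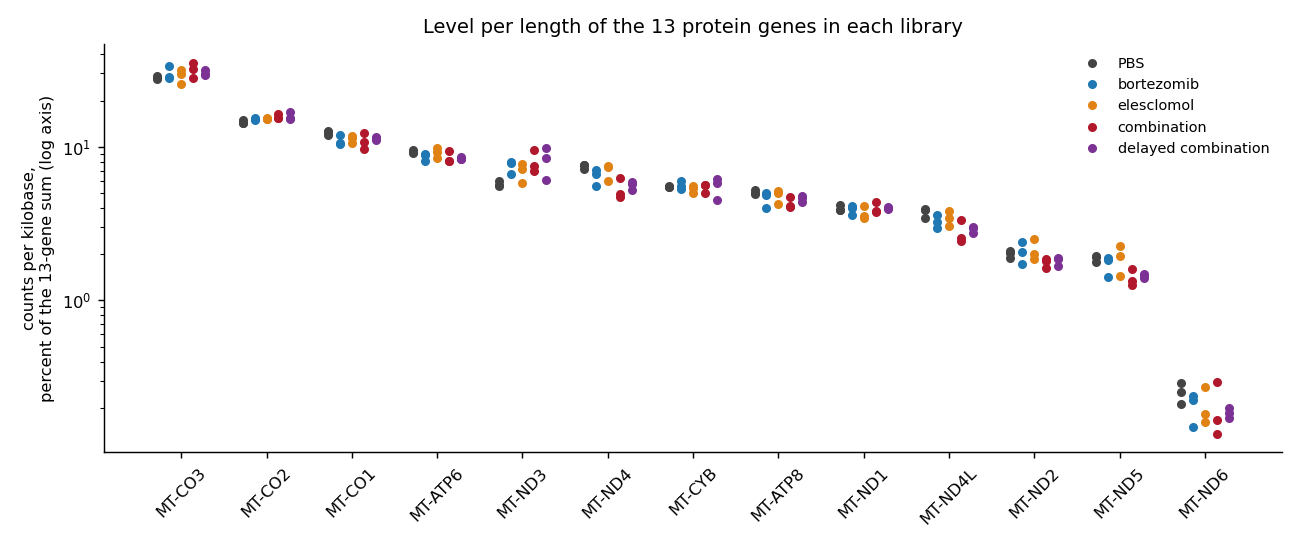
Level per length of each protein gene in each library: counts per kilobase as a percent of the sum over the 13 genes (y axis, log scale), genes in order of their mean. Points are libraries coloured by group; MT-CO3 is highest in all 15 libraries and MT-ND6 lowest, and MT-ND3 and MT-ND4 exchange places between libraries.

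The 4 comparisons with PBS asked whether each treatment shifted these genes. All 4 use the same 3 PBS libraries, so their values are given side by side and are not independent. The test was edgeR's quasi-likelihood test over 13085 genes, of which 18 are mtDNA genes: 13 protein genes, 2 ribosomal RNAs and 3 transfer RNAs. The other 19 members, all transfer RNAs, had counts too low to test. None of the 18 passed an adjusted p of 0.05 in any comparison with PBS. Among all genes tested, 0% passed for bortezomib, 0.0688% for elesclomol, 0% for the combination and 0% for the delayed combination. At an unadjusted p under 0.05, there was 1 member of 18 for bortezomib, 0 for elesclomol, 5 for the combination and 1 for the delayed combination. The shares of all genes at that level were 10.6%, 8.07%, 13.6% and 11.1%. With DESeq2 none of the 18 passed in any of the 4 comparisons, and with limma voom 6 passed for the combination and none for the other 3. Among all genes limma voom passed 10.7% for the combination, 5.66% for bortezomib, 0.413% for elesclomol and 1.28% for the delayed combination. The share of all genes that DESeq2 passed is not given here, so its count of 0 does not set mtDNA genes apart.

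The largest log2 differences of protein genes from PBS were in the combination. The summed protein genes held 1.58%, 1.56% and 1.64% of counts in the 3 PBS libraries and 1.20%, 1.38% and 1.13% in the 3 of the combination, with no overlap (95% Wilson interval in PBS 1, the shallowest library, 1.57% to 1.59%, counting error only). Of the 13 genes, 12 had a log2 change below 0 against PBS, and the median was -0.48, against 0.01 over all genes tested. In 9 of the 13 all 3 combination libraries were below all 3 of PBS, as were those of 10.9% of all genes. These were MT-ATP6, MT-ATP8, MT-CO1, MT-CO2, MT-CYB, MT-ND2, MT-ND4, MT-ND4L and MT-ND5. MT-ATP8 overlaps MT-ATP6 and MT-ND4L overlaps MT-ND4, so these are not independent members of the count. Without the 3 GC-rich libraries the median was -0.40, with 10 of 13 genes lower in the 2 remaining combination libraries than in all of PBS, as were 15.3% of all genes. With library sizes taken from the 13 protein genes themselves, the median of all genes was 0.365. The median of the 13 was then -0.13, with 8 below 0 and 5 above.

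The lowest values belonged to complex I genes that lie side by side. MT-ND4 (ENSG00000198886), at positions 10760 to 12137, was at 1908, 1670 and 1948 CPM in PBS (1842 ± 150, SD, n = 3) and at 958, 1335 and 924 CPM in the combination (1072 ± 228). Every combination library was below every PBS library. The log2 change was -0.78 ± 0.26 (95% interval -1.35 to -0.22, edgeR p 0.0104, adjusted p 0.295). The adjusted p ranged from 0.0139 with limma voom to 0.727 without combination 1 over the alternatives run. MT-ND4L, which overlaps the start of MT-ND4, was at 211, 173 and 216 CPM in PBS and at 106, 154 and 102 CPM in the combination, a log2 change of -0.73 ± 0.25 (edgeR p 0.0109, adjusted p 0.295). MT-ND5, which follows MT-ND4 after 3 transfer RNA genes at positions 12337 to 14148, was at 593, 589 and 658 CPM in PBS and at 333, 449 and 328 CPM in the combination. Its change was -0.73 ± 0.28 (edgeR p 0.0222, adjusted p 0.320). In all 3 of these genes combination 2 was the highest of its group and still below PBS.

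The other messages had values nearer to those of PBS. MT-CO1 was at 3587, 3262 and 3398 CPM in PBS and at 2206, 2932 and 2234 CPM in the combination, with a log2 change of -0.48 ± 0.19 (edgeR p 0.0216, adjusted p 0.320). MT-ATP8 was at 188.5, 172.4 and 201.3 CPM in PBS and at 122.7, 152.1 and 115.9 CPM in the combination (log2 change -0.52 ± 0.24, edgeR p 0.0455, adjusted p 0.360). Both had no overlap with PBS. MT-ATP6, MT-ND2, MT-CYB and MT-ND1 had log2 changes of -0.43, -0.49, -0.32 and -0.30, and MT-ND6, counted at only 9.60 to 27.8 CPM, -0.62 ± 0.38. MT-CO2 had a log2 change of -0.19 ± 0.16 and MT-CO3 of -0.13 ± 0.15 (0.23 for MT-CO3 with library sizes from the 13 protein genes), with a 95% interval for MT-CO3 of -0.46 to 0.20. MT-CO3 was at 3945, 3852 and 4103 CPM in PBS and at 4068, 3421 and 3391 CPM in the combination, and the groups overlapped.

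MT-ND3 was the exception among the 13. It lies between MT-CO3 and MT-ND4L at positions 10059 to 10404. Its level was 378, 327 and 361 CPM in PBS, 384, 371 and 449 CPM in the combination and 339, 497 and 569 CPM in the delayed combination. The log2 change was 0.17 ± 0.17 in the combination (edgeR adjusted p 0.624) and 0.40 ± 0.17 in the delayed combination (p 0.0304, adjusted p 0.432). It was above 0 in all 4 comparisons with PBS, at 0.29 ± 0.17 for bortezomib and 0.25 ± 0.17 for elesclomol, and the 3 elesclomol libraries, at 428, 458 and 381 CPM, were all above PBS. Such a position, all higher than PBS, was held by 9.55% of all genes for elesclomol, and MT-ND3 was the only one of the 18 tested members there. None of the 18 was lower in all 3 elesclomol libraries, a position held by 10.2% of all genes.

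**Figure D4:**
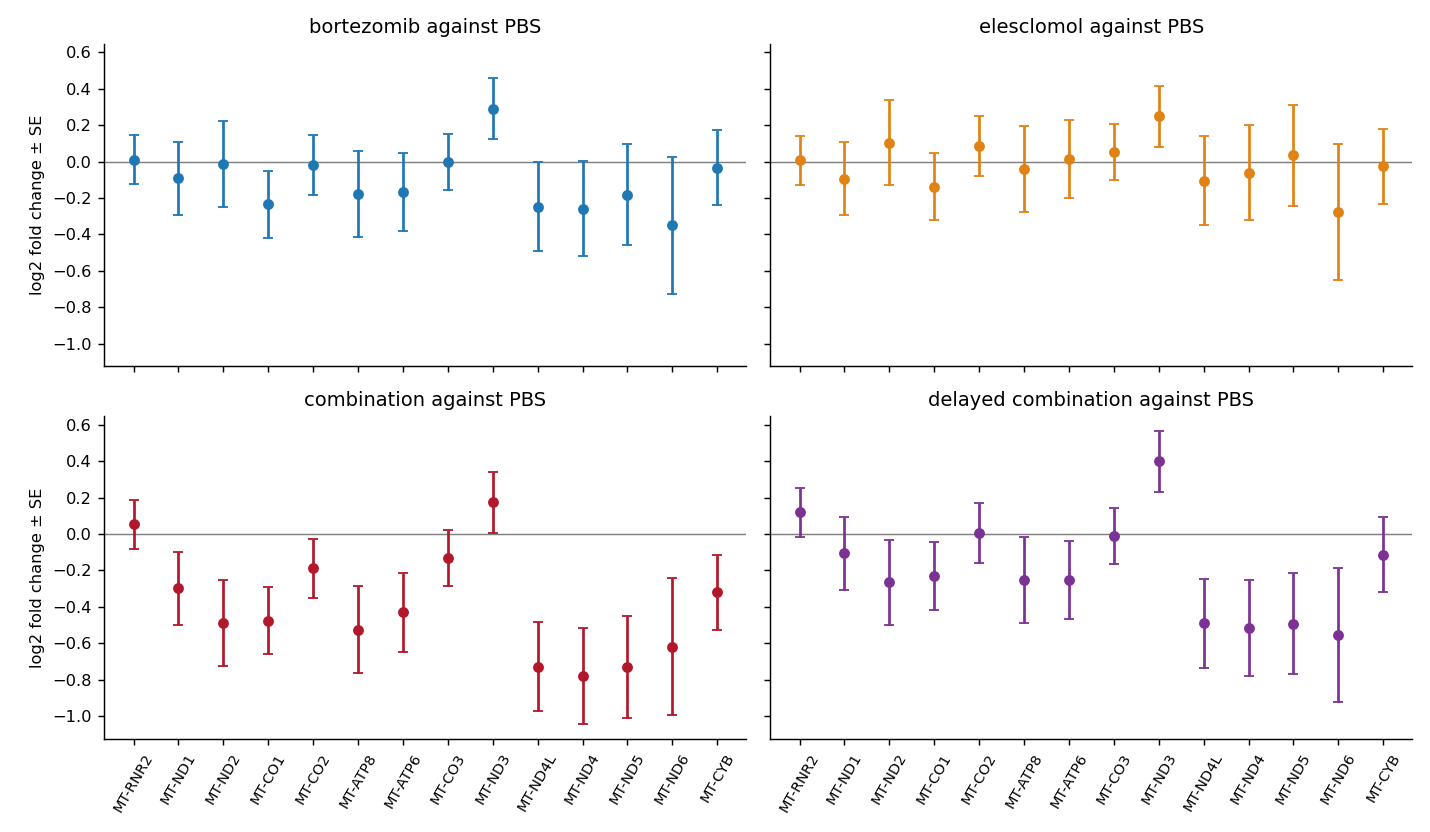
Fitted log2 fold change against PBS (y axis) with ± 1 SE for MT-RNR2 and the 13 protein genes, in their order along the chromosome, in 4 panels for the 4 treatments. In the combination MT-ND4 (-0.78), MT-ND4L (-0.73) and MT-ND5 (-0.73) are lowest, while MT-RNR2 (0.05) and MT-ND3 (0.17) lie above 0.

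In the delayed combination the values of most messages lay below those of PBS as well. Of the 13 protein genes, 11 had a log2 change below 0, with a median of -0.25, against 0.01 over all genes. In 7 of them all 3 libraries were below PBS, as in 14.7% of all genes: MT-ATP6, MT-ATP8, MT-CO1, MT-ND4, MT-ND4L, MT-ND5 and MT-ND6. MT-ND4 was at 1261, 1399 and 1205 CPM (1288 ± 100, SD, n = 3), with a log2 change of -0.52 ± 0.26 (edgeR p 0.0693, adjusted p 0.466). MT-ND5 was at 433, 453 and 423 CPM (log2 change -0.49 ± 0.28, adjusted p 0.495), below all of PBS. The direct comparison, delayed minus combination, was 0.26 ± 0.26 for MT-ND4 (95% interval -0.30 to 0.83, edgeR adjusted p 1.0). None of the 18 members passed there, with 0% of all genes passing, and 0 had an unadjusted p under 0.05, against 2.63% of all genes. MT-CO2, MT-ATP8 and MT-TI were higher in all 3 delayed libraries than in all 3 of the combination, as were 3.54% of all genes, and 0 of 18 were lower, against 4.05%. DESeq2 and limma voom also called 0 of the 18 in this comparison and in those between drugs that follow. Their shares over all genes are not given here for these comparisons.

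Ratios between genes of the same library, which do not depend on how libraries are scaled, differed from PBS in both groups given both drugs. For each count of MT-ND4 there were 2.07, 2.31 and 2.11 counts of MT-CO3 in PBS, 4.25, 2.56 and 3.67 in the combination and 3.16, 2.85 and 3.18 in the delayed combination. Both treated groups lay above PBS in every library. For each count of MT-ND5 there were 0.637, 0.556 and 0.548 counts of MT-ND3 in PBS, 1.15, 0.826 and 1.37 in the combination and 0.783, 1.10 and 1.34 in the delayed combination. Here too no library of either group reached down to PBS. The ratio of MT-CO3 to MT-ND4 was 3.45 in bortezomib 1 and 3.03 in elesclomol 3 and between 1.98 and 2.42 in the other 4 libraries of the single drugs. The ratio of MT-ND3 to MT-ND5 was 1.06, 0.671 and 0.818 in bortezomib, all above PBS, and 0.605, 0.568 and 1.03 in elesclomol, which overlaps PBS. These ratios were chosen after the values were seen and carry no test.

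**Figure D5:**
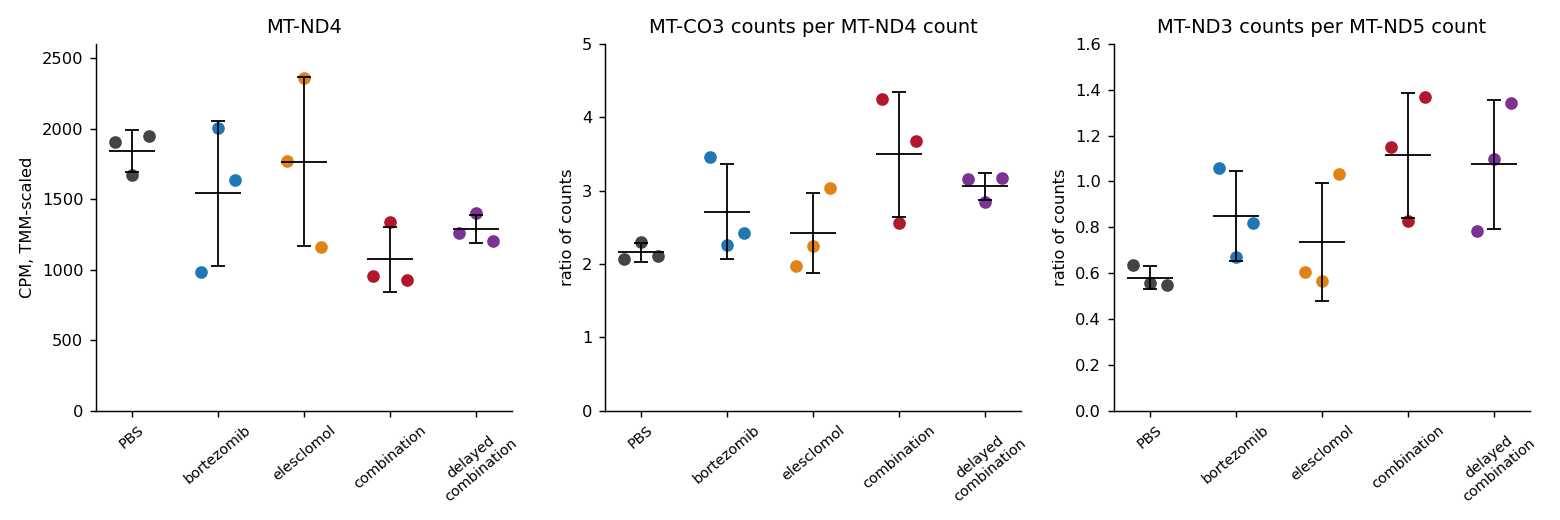
MT-ND4 in CPM with TMM scaling (left), MT-CO3 counts per MT-ND4 count (middle) and MT-ND3 counts per MT-ND5 count (right) in each library, by group, all axes linear from 0. Points are libraries, horizontal marks are means and bars are ± 1 SD (n = 3); PBS lies highest in MT-ND4 and lowest in both ratios against the combination and the delayed combination, while bortezomib and elesclomol overlap PBS in MT-ND4.

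Base composition and MALAT1, a nuclear noncoding RNA, differed between libraries as well. In all 12 treated libraries the GC correlation was above that of every PBS library. The 4 libraries lowest in MT-ND4 were combination 3, combination 1, bortezomib 1 and elesclomol 3, at 924, 958, 984 and 1163 CPM. The GC correlation in them was 0.08, 0.57, 0.61 and 0.22, and MALAT1 was at 2879, 1581, 1385 and 2686 CPM against 3896 to 4550 CPM in PBS. Delayed combination 2, with a GC correlation of 0.38 and MALAT1 at 1993 CPM, was at 1399 CPM in MT-ND4. Bortezomib 3, with 0.11 and 4722 CPM, was at 1633 CPM. The PBS libraries were at 1670 to 1948 CPM in MT-ND4. The part of these library properties in the level of mtDNA messages was not tested. The MT-ND4 change was -0.70 in the combination and -0.57 in the delayed combination without the 3 GC-rich libraries (edgeR adjusted p 0.453 and 0.430).

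In bortezomib alone the protein genes overlapped PBS. MT-ND4 was at 984, 2003 and 1633 CPM, which overlaps PBS, and its log2 change was -0.26 ± 0.26 (edgeR adjusted p 0.672). The 13 genes had a median of -0.17, with 12 below 0, and in none of them did the 3 libraries all lie below or all above PBS, against 9.61% and 10.5% of all genes. Bortezomib 1 was the lowest of its group in all 13. Without the 3 GC-rich libraries, of which it is one, the median was 0.08 and 9 of 13 were above 0, and MT-ND4 was at -0.02.

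Elesclomol alone gave values on both sides of PBS. MT-ND4 was at 1773, 2361 and 1163 CPM, so elesclomol 2 was the highest and elesclomol 3 among the lowest of all 15 libraries. The log2 change was -0.06 ± 0.26 (95% interval -0.62 to 0.50, edgeR adjusted p 0.971). The 13 genes had a median of -0.03, with 7 below 0 and 6 above. MT-CO3 was at 3508, 5300 and 3529 CPM against 3852 to 4103 CPM in PBS, and MT-ND5 at 707, 808 and 370 CPM against 589 to 658 CPM. For both genes the elesclomol libraries lay on both sides of PBS.

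The combination was also compared with each single drug. Against bortezomib the 13 genes had a median log2 difference of -0.27, all 13 below 0, and their groups overlapped in all 13, while 3.93% of all genes had all libraries lower and 4.26% all higher. No member passed (0% of all genes did), and 1 of 18, MT-TT, had an unadjusted p under 0.05, against 4.23% of all genes. In a fit of these 2 groups with the replicate number as a block, 5 genes passed, of which 0 were members. The number of genes tested in that fit is not given here. Against elesclomol the median was -0.34, again with all 13 below 0, and MT-ND4 differed by -0.72 ± 0.26 (edgeR p 0.0163, adjusted p 0.310). No member passed (0% of all genes did), and 6 of 18 had an unadjusted p under 0.05, against 12.2% of all genes. MT-TI was the only one of the 18 with all 3 libraries lower, against 7.47% of all genes, and 0 of 18 had all higher, against 8.57%.

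The delayed combination against bortezomib gave a median of -0.08 over the 13 protein genes, with 10 below 0. No member passed, as no gene did (0%), and 0 of 18 had an unadjusted p under 0.05, against 3.52% of all genes. The groups overlapped in all 18, while 3.86% of all genes had all libraries lower and 2.83% all higher. The interaction asks whether the combination differs from the sum of the single-drug changes. For MT-ND4 it was -0.46 ± 0.37 (95% interval -1.25 to 0.33, edgeR adjusted p 0.778), and over the 13 protein genes the median was -0.28. No member passed, against 0.00764% of all genes, and 2 of 18, MT-TT and MT-RNR1, had an unadjusted p under 0.05, against 8.79%. For MT-RNR1 the single-drug changes that enter it rested on bortezomib 3 and elesclomol 1. Without these 2 libraries they were -0.03 for bortezomib and -0.12 for elesclomol. A test for any difference among the 5 groups gave its smallest adjusted p among members for MT-ND4, at 0.539. No member passed it, as no gene did (0%), and 0 of 18 had an unadjusted p under 0.05, against 9.4% of all genes.

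Most nuclear genes of the same complexes had log2 differences above 0, and none passed the test. Of 37 tested nuclear genes of complex I, 28 had a log2 change above 0 in the combination and 31 in the delayed combination, with medians of 0.09 and 0.19. For complex III, 9 genes had medians of 0.13 and 0.21, for complex IV 11 genes had 0.17 and 0.22, and for complex V 15 genes had 0.14 and 0.18. In the delayed combination all 3 libraries were above PBS in 16 of 37, 5 of 9, 8 of 11 and 10 of 15 of these genes, against 12.8% of all genes. In the combination this held for 4 of 37, 1 of 9, 0 of 11 and 2 of 15, against 11.3% of all genes, and 4 of the 37 complex I genes had all 3 libraries below PBS. Of the 13 protein genes of mtDNA, 0 had all 3 libraries above PBS in either group. In the combination 9 had all 3 below and in the delayed combination 7, against 10.9% and 14.7% of all genes.

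Single nuclear genes show the size of this. NDUFC1, an accessory subunit of complex I, was at 36.6, 36.0 and 37.7 CPM in PBS and at 45.6, 45.3 and 45.2 CPM in the delayed combination, a log2 difference of 0.30 ± 0.08 (edgeR p 0.00136, adjusted p 0.263). All 3 libraries were above PBS. ATP5MC1, a subunit of the ATP synthase ring, was at 45.6, 46.5 and 46.2 CPM in PBS and at 54.5, 74.6 and 62.4 CPM in the delayed combination (0.47 ± 0.14, adjusted p 0.328). COX4I1, a nuclear subunit of complex IV, had a log2 difference of 0.30 ± 0.12 in the combination (edgeR adjusted p 0.332). It was at 68.2, 69.0 and 64.7 CPM in PBS and at 91.8, 67.6 and 89.1 CPM in the combination, with overlap. In bortezomib the medians were 0.15, 0.21, 0.17 and 0.17 for complexes I, III, IV and V, and in elesclomol 0.02, 0.01, 0.06 and 0.04. The GC correlation was 0.57, -0.39 and 0.08 in the combination libraries and -0.20, 0.38 and -0.12 in the delayed ones. The part of base composition in these nuclear values was not tested.

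For the nuclear genes that read, copy, cut and translate mtDNA the list medians lay close to 0 in the combination, and no gene passed. Single genes of these lists ranged from -0.46 to 0.53 there and from -0.69 to 0.85 in bortezomib. In the combination the medians were 0.13 over 10 genes of mtDNA transcription, -0.01 over 13 of mtDNA replication and the nucleoid, and 0.00 over 19 of mitochondrial RNA processing and turnover. They were 0.03 over 16 genes that modify mitochondrial transfer and ribosomal RNA, 0.04 over 12 translation factors and 0.01 over 8 regulators of respiratory genes. TFB2M, the factor that opens mtDNA promoters for the mitochondrial RNA polymerase, was at 34.99, 28.96 and 31.68 CPM in PBS and at 42.9, 38.3 and 43.5 CPM in the combination, all above PBS. Its log2 difference was 0.39 ± 0.12 (edgeR p 0.00539, adjusted p 0.272). MTERF4, a mitochondrial protein needed for ribosome assembly, differed by 0.39 ± 0.14 (adjusted p 0.297).

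In the processing list, 6 of 19 genes had an unadjusted p under 0.05 with lower values in the combination and 1 with higher, against 13.6% of all genes in either direction. GRSF1, an RNA-binding protein of mitochondrial RNA granules, was at 133, 137 and 131 CPM in PBS and at 112, 111 and 112 CPM in the combination, all below PBS. The log2 difference was -0.26 ± 0.09 (edgeR p 0.0128, adjusted p 0.297). MTPAP, the mitochondrial poly(A) polymerase, which adds the adenines that complete stop codons such as those printed above, was at 39.96, 45.72 and 42.23 CPM in PBS and at 35.7, 36.2 and 34.9 CPM in the combination (-0.26 ± 0.09, adjusted p 0.298). TOP1MT, the mitochondrial topoisomerase, differed by 0.53 ± 0.15 (adjusted p 0.253), and OXA1L, which inserts mtDNA-made proteins into the inner membrane, by 0.33 ± 0.11 (adjusted p 0.291).

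Copies of mtDNA in nuclear chromosomes bear on these counts, since a read from mtDNA can align to a near-identical copy. The table holds 402 annotated copies, of which 45 had a mean count of at least 10, and together they took 0.0937% to 0.136% of all counts. MTCO3P12, a copy of MT-CO3, had between 9.78% and 12.2% as many counts as MT-CO3 in each library, a nearly fixed share. MTND4P12, a copy of MT-ND4, was at 87.5, 89.1 and 93.8 CPM (without TMM) in PBS and at 47.1, 72.1 and 42.8 in the combination, with the same order of libraries within the combination as MT-ND4. How reads with several equal alignments were counted is not given in the sources used here, so the values of MT-CO3, MT-ND4 and their copies are uncertain to that extent. MTCO1P12, a copy of MT-CO1, differed by -0.67 ± 0.24 on the log2 scale in the combination (edgeR p 0.0140, adjusted p 0.299).

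Copies of MT-RNR2 lay on both sides of PBS, depending on the copy and the comparison. MTRNR2L2, which like its relatives carries the short humanin-like reading frame, was at 50.6, 39.9 and 47.1 CPM in PBS and at 66.0, 54.4 and 55.7 CPM in the combination, all above PBS (log2 difference 0.36 ± 0.13, edgeR p 0.0139, adjusted p 0.299). MTRNR2L1 differed by 0.49 ± 0.16 in the delayed combination (adjusted p 0.364). MTRNR2L10 differed by -0.26 ± 0.14 in bortezomib, all below PBS (edgeR adjusted p 0.497). It was at 18.29, 19.81 and 19.39 CPM in PBS. In the combination it was at 25.3, 23.15 and 23.57 CPM and in the delayed combination at 22.43, 24.42 and 25.05 CPM, all above PBS. MTRNR2L6, named after its values were seen, was at 102, 109.7 and 90.6 CPM (without TMM) in PBS and at 73.8, 92.7 and 84.1 CPM in the combination, with overlap. Of 17 tested genes in the list of copies, 15 had a difference above 0 in the delayed combination, with a median of 0.31, and 8 had all libraries above PBS, against 12.8% of all genes. In the combination 10 of 17 were above 0 (median 0.21), in elesclomol 11 (median 0.06) and in bortezomib 4 (median -0.03). None of the 17 passed in any of the 4 comparisons with PBS.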

How the data were processed

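The deposited values are raw read counts per gene, 1 table per library. Per the submitters' processing notes, the authors aligned reads with STAR 2.5.4b to GRCh37 and counted them with featureCounts 1.6.1. Frozen marrow pellets gave RNA by Trizol, and a stranded kit that removes ribosomal RNA gave the libraries, per the labels' protocols. For strand setting, annotation release, multiply aligned reads and mouse reads, the choice made is not given in the sources used here. Symbols (52338 of 57773 identifiers) and sequences came from GENCODE 29. All values reported rest on the counts as deposited.

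Groups were taken from titles. Genes kept by filterByExpr (minimum count 10) were fitted in 1 model over all 15 libraries with edgeR 4.0.16 (TMM, robust quasi-likelihood, R 4.3.3), with Benjamini-Hochberg adjusted p under 0.05 as passing. The 10 tests were 8 pairs of groups, the interaction and any difference. Shares of mtDNA counts carry no test. The code was tested on simulated data. Python 3.11.15, pandas 2.3.3, scipy 1.17.1 and matplotlib 3.10.9 were used for shares, sequences and plots.

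The mtDNA genes and the 16 gene lists were chosen with earlier results of these data known. Named were all protein and ribosomal RNA genes, transfer RNAs with a mean of at least 10 counts, and up to 2 genes with the smallest p per list and comparison with PBS. The ratios, the copies MTND4P12 and MTCO3P12 and the 5.8S rRNA copies were chosen after their values were seen. Alternatives were DESeq2 1.42.0, its size factors, limma 3.58.1 voom with quality weights, no filter, a fit of the compared groups alone, a replicate block, library sizes from genes inside or outside mtDNA, and leaving out libraries. Every pair of libraries within a group differed by more than sampling noise. Only some of the genes that this rule allows are named. The lists are otherwise given by counts and medians, and some genes are not reported here by name. Same-numbered bortezomib and combination libraries deviated together from their group means (r 0.66, 0.52 and 0.12), so a fit of these 2 groups with the number as a block was added after the data were seen. In no other pair of groups were all 3 correlations above 0.1, and the labels give the numbers no meaning.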

Additional observations from a re-analysis of the deposited data

How the results depend on the processing

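The number of mtDNA genes passing was 0 in 181 of 184 alternatives over the 10 tests. The exceptions were limma voom and no filter on low counts. With limma voom 6 were lower for the combination against PBS, among 1394 genes passing (10.7% of those tested). These were MT-ATP6, MT-ATP8, MT-CO1, MT-ND4, MT-ND4L and MT-ND5. With no filter 2 were lower for the combination (MT-CO1 and MT-ND4L, among 211 genes passing) and 1 was higher for the delayed combination (MT-ND3, among 193). The number of genes tested without the filter is not given here, so no share of all genes can be set beside these. The cause of these 3 differences was not tested. Leaving out each library in turn gave 0 throughout. Few genes of any kind passed in the main fit, 0% to 0.0688% per test, so a count of 0 does not set mtDNA genes apart. Of 2876 alternative values for single genes, 2741 kept their side of the threshold and moved by less than the spread allowed, 126 moved further, 9 newly passed and 0 reversed a passing value.

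Library sizes taken from the 13 protein genes, an alternative chosen after seeing the data, put the median of all genes at 0.365 for the combination (log2), against 0.01 in the main fit. Relative to that sum the change was -0.44 for MT-ND4, 0.23 for MT-CO3, 0.41 for MT-RNR2 and 0.54 for MT-ND3, and the direction of MT-CO3 thus flips. Leaving out bortezomib 3 and elesclomol 1 was also chosen after seeing the data. Without the 2 ribosomal RNAs in share and total, mtDNA held 2.48% of counts in PBS, 2.25% in bortezomib, 2.42% in elesclomol, 1.95% in the combination and 2.22% in the delayed combination.

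Replicate numbers carry no stated meaning in the labels. Same-numbered libraries of different groups correlated at -0.44 to 0.66 (median -0.07, 6 of 30 pairs above 0.1), so the numbers do not pair the libraries across all groups. With the replicate block over all 15 libraries, 0 mtDNA genes passed in every comparison, and MT-ND4 in the combination against PBS was at -0.82 (edgeR adjusted p 0.273). For bortezomib and combination, same-numbered libraries correlated at 0.12 to 0.66. A fit of these 2 groups with the replicate block also passed 0 mtDNA genes (5 of all genes, with the number tested not given here). MT-ND4, lower in the combination in 3 of 3 pairs, was at -0.47 (edgeR adjusted p 0.385). The replicate block changed no call for a mtDNA gene. Low counts kept 19 transfer RNAs from being tested.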
